A study of Mus musculus with 8 samples.

Results

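Lrig1 encodes a transmembrane protein with leucine-rich repeats and immunoglobulin-like domains that restrains signalling by the epidermal growth factor receptor and its relatives. In the small intestine it is expressed at the crypt base and is used as a marker of stem and progenitor cells there. Methylation of CpG dinucleotides at a CpG-rich promoter is generally found with a silent gene, whereas methylation inside a gene is also found in expressed genes, so the position of a methylated stretch within the gene matters for reading it.

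The gene was examined on chromosome 6 in mm9, from 94554500 to 94650200 (95701 bp), inside a 200 kb window from 94500000 to 94700000. Peaks of the 8 libraries that shared at least 1 bp were merged, which gave 69 regions in the window, 39 of them in the gene, out of 475861 over the genome. The locus was chosen by the presence of peaks in embryonic libraries where adult libraries had none, so presence, tags and fold enrichment by group are described here without a test. The gene lies on the minus strand in the RefSeq table, so its 5′ end is at the higher coordinate. That table has the build GRCm38.p6, whereas peak positions are in mm9, so the gene bounds are approximate and regions were not assigned to exons, introns or UTRs.

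The libraries came from sorted epithelial cells of the small intestine of mice of a mixed C57BL/6 and CD1 strain, in 4 groups of 2 biological replicates. The groups were embryonic epithelium at E12.5 and at E14.5 (embryonic days), then adult Lgr5+ intestinal stem cells (ISC) and adult enterocytes, the absorptive cells of the villus, both from males at postnatal day 60. Embryonic cells and enterocytes were sorted as EpCAM-positive, CD31-negative and CD45-negative, and ISC for high EGFP. The adult males carried an Lgr5 allele that drives EGFP and an inducible Cre, and the labels used here give no such allele for the embryos. Methylated DNA was pulled down with a methyl-CpG-binding domain (MBD) protein and sequenced, and a peak is a stretch where the pulled-down fragments piled up. In sorted populations, fewer methylated cells and fewer methylated CpGs per molecule cannot be told apart in such a pull-down, and no percent methylation per site is measured.

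Lists differed in length, which bears on every count below. They held 84990 to 100314 peaks at E12.5, 317772 to 338262 at E14.5, 203322 to 282490 in ISC and 164157 to 232179 in enterocytes, from 31438314 to 55442400 tags per library. Peaks took 7.46% to 9.84% of tags at E12.5 and 23.8% to 38.9% in the other 6 libraries. Each list was thresholded on its own, so a missing peak means that the tags did not pass the cutoff of the peak caller, not that methylation was absent.

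No library of any group had a peak around the 5′ end of Lrig1. The stretch without a peak ran from 94643989 to 94652193 (8205 bp) and holds the 5′ bound of the gene. Such a stretch was not particular to the 5′ end. Stretches of 8499 bp in the flank on the 3′ side and 8209 bp in the flank on the 5′ side also had no peak in any library. The promoter itself is rich in CpG: the 250 bases before the transcription start hold 26 CG dinucleotides, 0.852 of the number their base composition would give, and are 71.6% G or C. Of 32851 promoters in the same table, 9.59% hold 26 or more in these 250 bases, and the median is 6. The sequence is shown because dense CpGs are what the pull-down captures when methylated. It is given 5′ to 3′ from RefSeq, GRCm38.p6 chr6:94700146-94700395, minus strand, with each CG in capitals (the motif reads the same on both strands):
Lrig1 promoter: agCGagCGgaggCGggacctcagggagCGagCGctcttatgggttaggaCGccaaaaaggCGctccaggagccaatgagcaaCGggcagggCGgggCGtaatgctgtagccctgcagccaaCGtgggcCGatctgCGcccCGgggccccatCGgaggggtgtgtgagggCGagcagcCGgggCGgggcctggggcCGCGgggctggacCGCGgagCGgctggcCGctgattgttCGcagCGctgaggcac
This sequence was not placed on mm9, and the statement on peaks rests on the approximate bound of the gene.

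Inside the gene, E12.5 replicates had a peak in 8 and 9 of the 39 regions, E14.5 replicates in 29 and 28, ISC replicates in 4 and 8, and enterocyte replicates in 1 and 8. The E14.5 libraries stood above all others, and the E12.5 libraries met the upper end of the adult ones at 8 regions. The adult libraries were spread widely, and enterocyte replicate 1, with the shortest adult list, had a single peak. Set against list length, the gene held 7.97 and 10.6 peaks per 100000 peaks of the list at E12.5, 9.13 and 8.28 at E14.5, 1.97 and 2.83 in ISC, and 0.609 and 3.45 in enterocytes. On that scale the E12.5 and E14.5 libraries overlapped, and all 4 adult libraries were below all 4 embryonic ones.

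**Figure D1:**
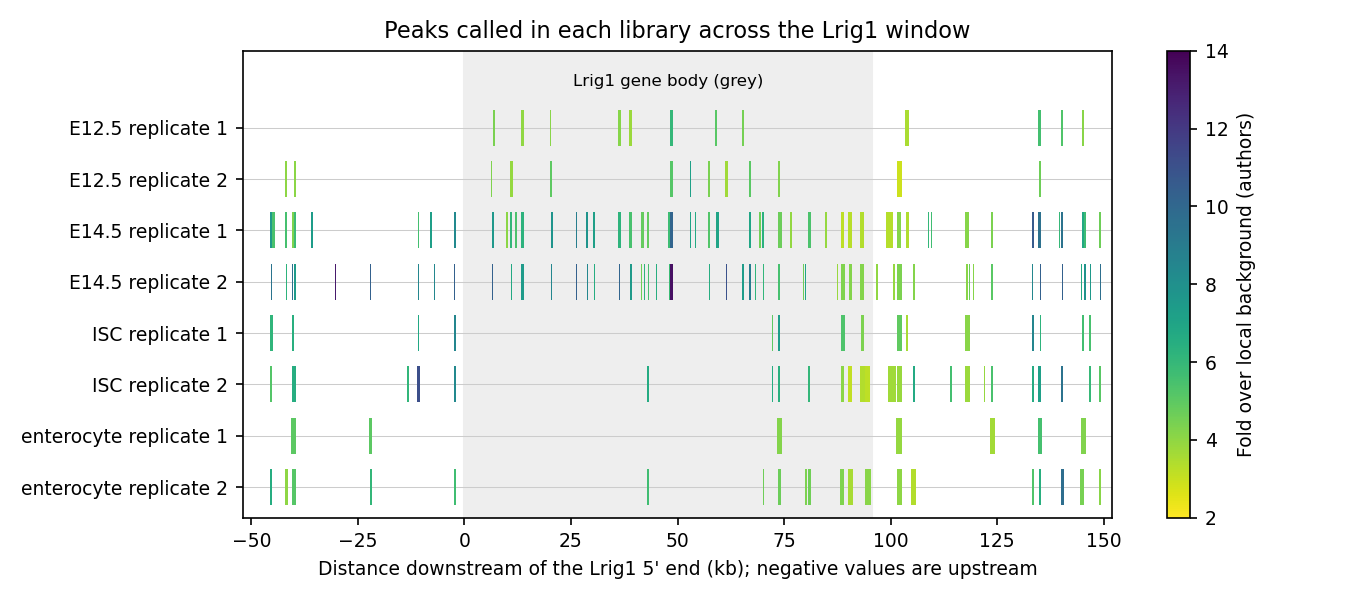
Peaks of the 8 libraries across the 200 kb window, 1 row per library, with distance from the Lrig1 5′ end in kb on the x axis (downstream to the right), the gene body in grey and each peak coloured by the authors' fold over local background. E14.5 peaks run along most of the gene. Adult peaks sit mostly in its last part at the 3′ end, where E12.5 peaks are few. No library has a peak at the 5′ end.

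Of the 39 regions, 10 had a peak in any adult library (background over all merged regions 74.8%) and 37 in any embryonic library (background 87.0%). Either E14.5 library had a peak in 37 (background 82.6%) and either E12.5 library in 14 (background 30.1%). Both libraries of a group had a peak in 3 regions at E12.5 (background 7.93%), 20 at E14.5 (background 43.7%), 4 in ISC (background 31.4%) and 1 in enterocytes (background 27.7%). In 29 regions an embryonic peak stood without any adult one (background 25.2%), and in 2 the reverse held (background 13.0%). No region of the gene was called in all 8 libraries (background 5.16%), 1 was called in all 4 adult libraries (background 19.8%), and 0 in all 4 adult libraries without an embryonic one (background 0.402%). A single library carried 11 regions (background 28.1%). These shares describe the contrast by which the locus was picked and nothing further is read from them.

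Adult peaks were unevenly placed along the gene. When the gene was divided into 4 parts of equal length after the data were seen, 8 of the 12 regions in the part at the 3′ end had an adult peak, against 1 of 12, 1 of 9 and 0 of 6 in the next parts towards the 5′ end. In that last part, at the 5′ end, peaks covered 0% of the bases in all 4 adult libraries, against 5.74% to 12.6% in the E14.5 libraries and 6.24% to 8.18% in the E12.5 libraries. In the part at the 3′ end the adult libraries covered 4.39% to 23.8%, and the E14.5 libraries 15.5% and 21.4%. There the first replicates of ISC and enterocytes, at 10.8% and 4.39%, were below both E14.5 libraries and the second replicates, at 23.8% and 21.8%, above both, while the E12.5 libraries covered 0% and 2.07%.

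**Figure D2:**
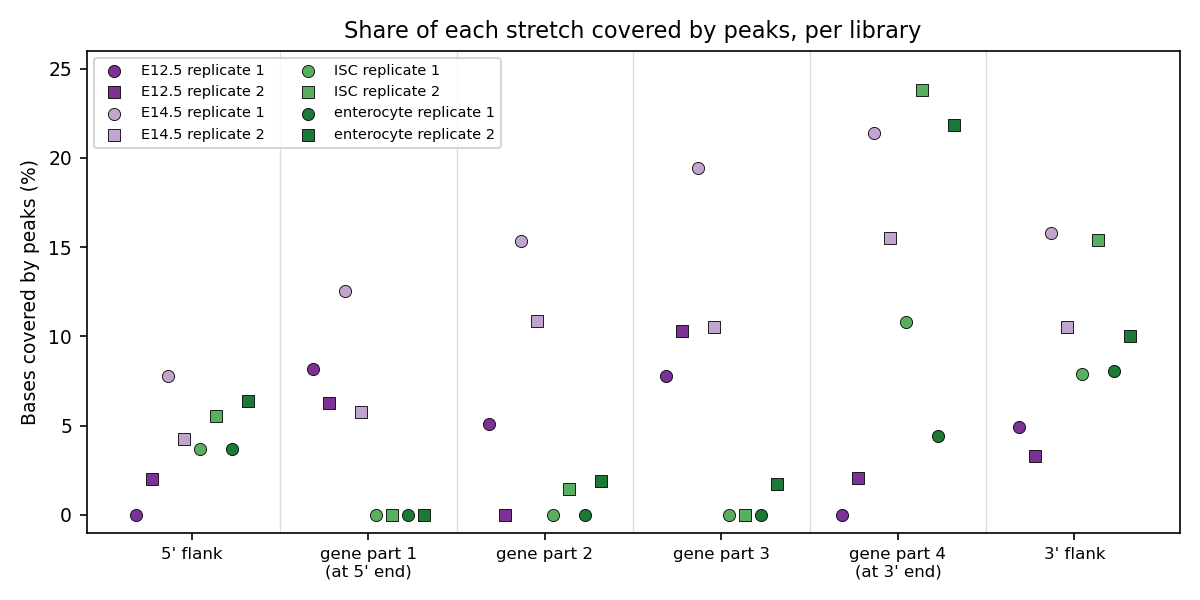
Percent of bases covered by peaks (y axis) in each flank and in each of 4 equal parts of the gene from the 5′ to the 3′ end (x axis), 1 point per library (circle for replicate 1, square for replicate 2). Adult libraries are at 0% in the part at the 5′ end, at 0% to 1.89% in the next parts, and at 4.39% to 23.8% in the part at the 3′ end, where the first replicates of both adult groups are below both E14.5 libraries and the second replicates above both. In each flank the adult and E14.5 ranges overlap.

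The longest stretch without an adult peak ran from 94607331 to 94652193 (44863 bp), from inside the gene past its 5′ end. It held 10 regions called in both E14.5 libraries. A further stretch without adult peaks, from 94580271 to 94606879 (26609 bp), held 4 more. A single region parts these stretches, 94606806 to 94607330, with 44 and 37 tags at E14.5, 22 tags in ISC replicate 2 and 25 in enterocyte replicate 2. Its enterocyte peak was in the lowest 3.78% of that list by score, and its ISC peak in the lowest 37.3% of the ISC replicate 2 list. These peaks were at 5.69 and 6.67 times the local background. ISC replicate 1 and enterocyte replicate 1 had no peak in the region, and their own stretches without a peak were 74235 and 95055 bp long.

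The region nearest the 5′ end, 94642964 to 94643988, was called in all 4 embryonic libraries and no adult one. Its E12.5 peaks did not overlap: that of replicate 1 ended at 94643581, that of replicate 2 started at 94643618, and E14.5 peaks joined them. The region held 44 and 26 tags at E14.5, at 7.62 and 10.3 times the local background, against 45 and 28 tags at E12.5, at 4.42 and 4.30 times. Tags were thus alike at both stages, from E12.5 libraries that were deeper in total. The same libraries had a peak at 94629503 to 94630224, with 32 and 23 tags at E14.5 and 32 and 40 at E12.5.

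The strongest region of the gene by E14.5 score, 94601276 to 94601973, lay 48.6 kb from the 5′ end and was also called in all embryonic and no adult libraries. It held 62 and 72 tags at E14.5, at 10.1 and 13.5 times the local background, against 79 and 50 tags at E12.5, at 6.03 and 5.18 times. Per 1000000 library tags these tags came to 1.79 and 2.06 at E14.5, against 1.43 and 0.902 at E12.5. The lower of its E14.5 score percentiles, the rank of the score within each list as a percent of the peaks, was 95.7. Its neighbour at 94601998 to 94602498, with 32 and 17 tags at E14.5 and none called elsewhere, had a percentile of 0.228. The 3 regions of the gene with all 4 embryonic and no adult libraries made up 7.69% of its regions, against a background of 0.139% over all merged regions, a share that the choice of the locus fixes in part.

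Between them lay regions with peaks at E14.5 in each replicate and at E12.5 in 1 replicate. At 94636147 to 94637035 the E14.5 libraries held 55 and 60 tags and E12.5 replicate 1 held 78. At 94610951 to 94611580 they held 56 and 56 tags, against 47 in E12.5 replicate 1, and at 94613434 to 94614093 they held 41 and 38, against 53 in E12.5 replicate 1. The E12.5 libraries were deeper in total, so raw tags are not on 1 scale between the stages. Per 1000000 library tags, the E14.5 values were 1.59 and 1.72, 1.62 and 1.61, and 1.19 and 1.09 in the order given. Those of E12.5 replicate 1 were 1.41, 0.851 and 0.959, below both E14.5 values in each region. In these 3 regions E12.5 replicate 2 had no peak.

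The other E12.5 replicate carried the call elsewhere. At 94638839 to 94639490 the E14.5 libraries held 41 and 29 tags, against 53 in E12.5 replicate 2, at 94592483 to 94592979 they held 38 and 17, against 36, and at 94582907 to 94583502 they held 47 and 39, against 40. E12.5 replicate 1 had no peak in these 3 regions. The E12.5 replicates shared 3 of the 14 regions of the gene with an E12.5 peak, against 37757 of 143471 over the genome. Replicate 2 had no peak from 94601924 to 94629562 (27639 bp), where replicate 1 was called at 94610951 to 94611580 and at 94613434 to 94614093.

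In the longest stretch, 4 regions had a peak in each E14.5 replicate and in no other library. At 94623739 to 94624118 these peaks held 24 and 29 tags at 8.92 and 10.3 times the local background. At 94621211 to 94621631 they held 25 and 16 tags, at 94619509 to 94620023 they held 33 and 13, and at 94608148 to 94608870 they held 59 and 24. Their folds were 7.81 and 8.46, 7.25 and 6.58, and 4.85 and 4.66. The lower E14.5 score percentiles of the 4 regions were 43.0, 25.2, 0.131 and 16.7 in the order given. The replicate 2 peak at 94619509 to 94620023 scored 50.05, where the lowest score of its list was 50. In 3 of these 4 regions E14.5 replicate 2 held fewer tags than replicate 1. The median peak of E14.5 replicate 2 was 272 bp long, against 450 bp in replicate 1, so tags per peak are not on 1 scale between these replicates.

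**Figure D3:**
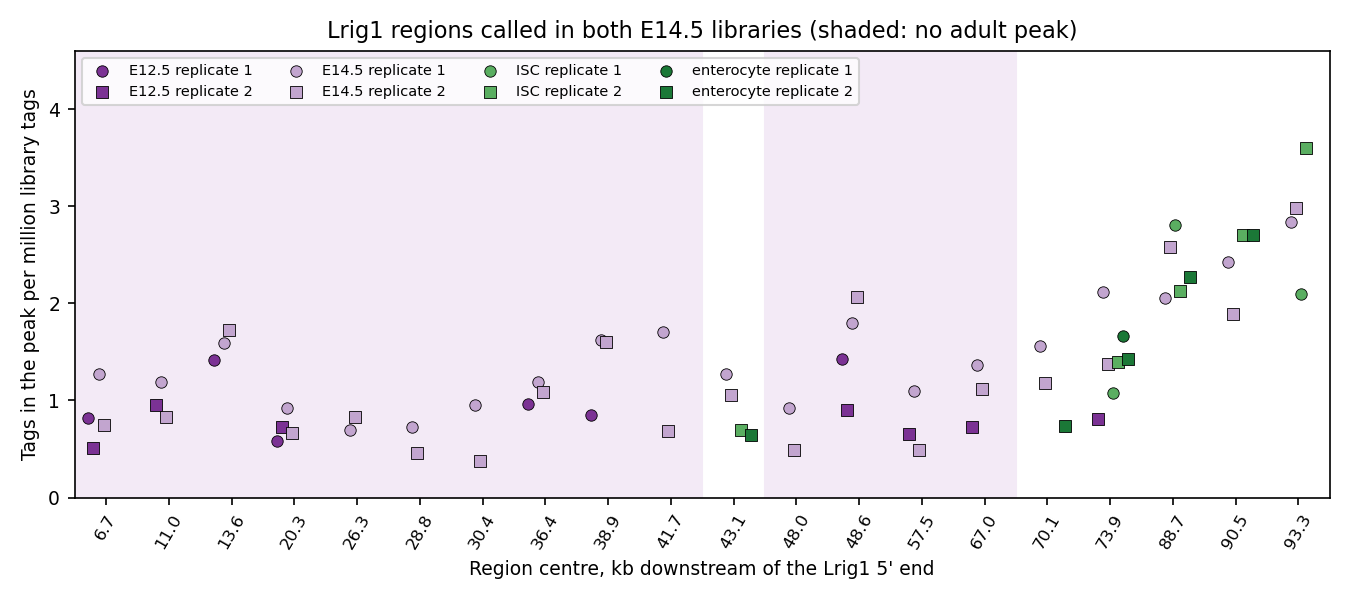
Tags per 1000000 library tags (y axis) in each library that has a peak, for the 20 regions of the gene with a peak in each E14.5 replicate, placed by distance from the Lrig1 5′ end (x axis, in kb, not to scale). Shading marks the 14 regions without an adult peak, which hold E14.5 and some E12.5 points, while adult points appear in 5 regions towards the 3′ end and in 1 further region 43.1 kb from the 5′ end.

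For E14.5 against E12.5, 10 of the 20 regions with a peak in each E14.5 replicate had no E12.5 peak, 50.0% against a background of 54.7%. No region called in both E12.5 libraries lacked an E14.5 peak, 0 of 3, against a background of 3.48%. Nor did any of the 14 regions with a peak in either E12.5 library, and the background share with an E14.5 peak was 85.5%. The gene was thus near the genome as a whole in this comparison. Where the E12.5 peaks fell was less even: 13 of the 14 were in regions without an adult peak (background 16.9%), and 1 of the 14 was in the part of the gene at the 3′ end. Of the 14 regions with both E14.5 and no adult libraries, 9 had an E12.5 peak, against a background of 17.7% for such regions. The choice of the locus for embryonic peaks without adult ones fixes these shares in part. The backgrounds were also not matched for peak strength, so nothing further is read from them. With a single E14.5 library in place of both, the count without an E12.5 peak was 16 without E14.5 replicate 1 and 17 without E14.5 replicate 2. These are out of the 28 and 29 regions called in the remaining E14.5 library.

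For ISC against E14.5, 15 of the 20 regions called at E14.5 had no ISC peak, against a background of 15.3%. In the reverse direction 1 of the 4 regions called in both ISC libraries lacked an E14.5 peak (background 6.08%). That region, 94577713 to 94578144, held 18 and 31 tags in ISC, had no peak in any other library and is 72.3 kb from the 5′ end. Enterocytes lacked a peak at 15 of the same 20 regions, against a background of 22.8%, and no adult library had one at 14, against 10.2%. Without E14.5 replicate 1 or without E14.5 replicate 2, the count lacking an ISC peak was 23 in each case, and the count lacking any adult peak was 21 and 22. These counts are out of the 28 and 29 regions called in the remaining E14.5 library, not out of 20. The backgrounds given here do not apply to them. The 1 region called in both enterocyte libraries had an E14.5 peak, so 0 of 1 lacked one (background 4.56%), and 0 of 1 lacked every embryonic peak (background 3.81%). For ISC against E12.5, 3 of the 4 ISC regions had no E12.5 peak (background 48.3%). The 3 regions called in both E12.5 libraries lacked any ISC peak (background 7.28%) and any adult peak (background 5.00%).

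For enterocytes against ISC, 2 of the 4 regions called in both ISC libraries had no enterocyte peak (background 12.3%), and the 1 region called in both enterocyte libraries also had an ISC peak, so 0 of 1 lacked one (background 4.61%). The 2 regions were 94577713 to 94578144, given above, and 94556334 to 94557510, with 68 and 113 tags in ISC, 98 and 104 tags at E14.5 and no enterocyte peak. Each adult group had a peak in 8 of the 39 regions when its 2 libraries were joined, against backgrounds of 54.1% for enterocytes and 65.9% for ISC.

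The adult peaks of the gene were mostly at its 3′ end, and the largest of them held tags of the order seen at E14.5. The region from 94575759 to 94576812 was called in 7 libraries, with 45 tags in E12.5 replicate 2, 73 and 48 at E14.5, 35 and 44 in ISC, and 72 and 56 in enterocytes. The region from 94561019 to 94561985 held 71 and 90 tags at E14.5, 91 and 67 in ISC, and 89 in enterocyte replicate 2. The region from 94559148 to 94560221 held 84 and 66 tags at E14.5, 85 in ISC replicate 2 and 106 in enterocyte replicate 2. Adult and E14.5 tags overlapped in the first pair of these regions, and in the last both adult values were above both E14.5 values.

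Other adult peaks there were in fewer libraries. At 94579851 to 94580373 enterocyte replicate 2 held 29 tags, against 54 and 41 at E14.5. The region nearest the 3′ end, 94554915 to 94556310, had no embryonic peak, with 96 tags in ISC replicate 2 and 121 in enterocyte replicate 2, both at most 4.14 times the local background. At 94568960 to 94569604 E14.5 replicate 1 held 67 tags, ISC replicate 2 held 46 and enterocyte replicate 2 held 45. At 94569933 to 94570393 enterocyte replicate 2 held 34 tags, against 37 in E14.5 replicate 2. All adult calls in these 4 regions came from second replicates, whose lists were longer than those of the first replicates in both adult groups.

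The other 15 regions of the gene had embryonic peaks in 1 or 2 libraries and no adult peak. In 4 of them an E12.5 peak of 36 to 47 tags lay with a peak in 1 E14.5 library, of 28 to 53 tags. The remaining 11 were each called in a single E14.5 library.

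The flanks held adult peaks where the 5′ side of the gene did not. Of the 14 flank regions called in both E14.5 libraries, 1 had no ISC peak (background 15.3%) and 0 lacked a peak in every adult library (background 10.2%). Inside the gene these counts were 15 and 14 of 20. The flank count of 1 lacking an ISC peak became 6 without either E14.5 replicate, where 1 library decides the call. Each 6 is out of the flank regions called in the remaining E14.5 library, not out of 14. The flank count became 2 without ISC replicate 1 and 4 without ISC replicate 2. The flank on the 3′ side, towards Slc25a26, the next gene in the RefSeq order and a mitochondrial carrier of S-adenosylmethionine, had peaks over 7.91% to 15.4% of its bases in the adult libraries and 3.30% to 15.8% in the embryonic ones. Per 100000 peaks of the list it held 2.44 to 4.25 peaks in adult and 2.35 to 4.43 in embryonic libraries, so the sides overlapped there. The flank on the 5′ side had peaks over 3.66% to 6.36% of its bases in adult libraries and 0% to 7.76% in embryonic ones, and again the sides overlapped. Of the 7 flank regions with an E12.5 peak, 0 lacked an adult peak, against a background of 16.9%.

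Just past the 5′ end, the region from 94652194 to 94652686 was called in both E14.5 libraries, with 32 and 23 tags, in both ISC libraries, with 23 and 21, and in enterocyte replicate 2, with 31. It lies next to the gene bound, and the region nearest the bound on the inside had no adult peak. At the other bound, the nearest region outside, 94553278 to 94553676, had 53 tags in E14.5 replicate 2 alone. In the flanks, 94514729 to 94515633 was the region called in all 8 libraries, with 46 and 47 tags at E12.5, 64 and 28 at E14.5, 23 and 42 in ISC, and 57 and 43 in enterocytes.

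Peak strength was set beside these counts, since weak peaks are more often missing from another list. All 207941 regions with peaks at E14.5 in each replicate were ranked by the lower of their E14.5 score percentiles and divided into 10 bins of equal size. Of these, 26.1% of the weakest bin had no adult peak and 0.625% of the strongest bin. The 14 regions of the gene without an adult peak had a median percentile of 53.4 (range 0.131 to 95.7), and the 6 with one had a median of 43.3 (range 4.59 to 59.0). The regions without adult peaks were thus spread from the weakest bin to the strongest. In the upper 4 bins, 7 of the 8 regions of the gene had no adult peak, where the genome gave 3.92% at most in any of those bins. The choice of the locus for embryonic peaks without adult ones fixes a high share here, so nothing is read from it about why adult peaks are missing, and the part of peak strength in the missing calls was not tested.

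**Figure D4:**
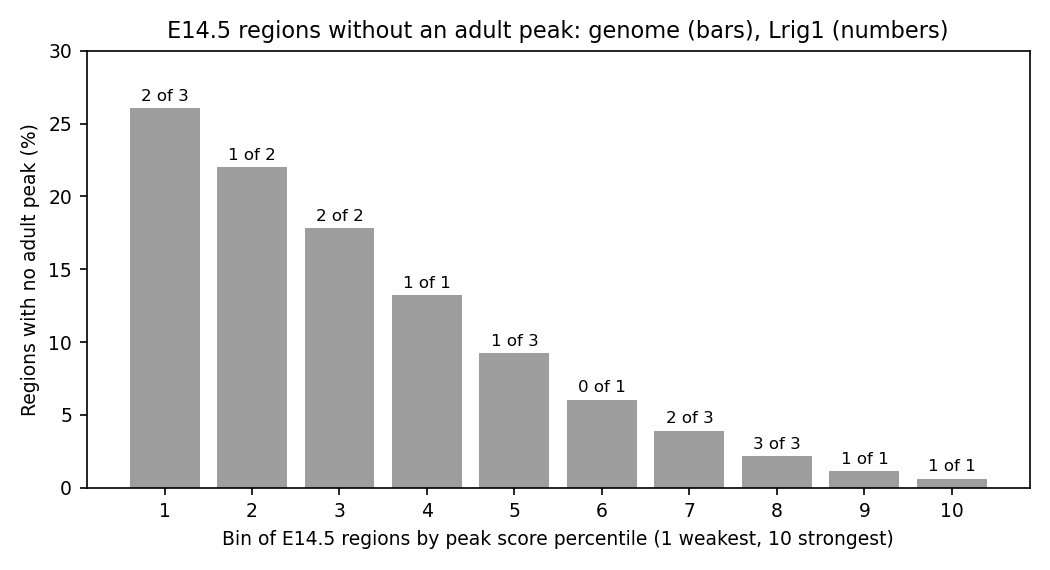
Percent of regions with peaks in each E14.5 replicate that had no adult peak (bars, y axis), in 10 bins of E14.5 score percentile from weakest to strongest (x axis), with the count of Lrig1 regions without an adult peak of those in each bin printed above its bar. The bars decline from 26.1% to 0.625%, and Lrig1 regions without adult peaks occur in 9 of the 10 bins.

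At their mean E14.5 rate of 0.591 to 1.93 tags per 1000000 library tags, the 14 regions would give 18.6 to 62.5 tags at the depth of the ISC libraries and 23.1 to 83.6 at the depth of the enterocyte libraries. The smallest peaks in those lists held 15 tags in each ISC list, and 23 and 19 in the enterocyte lists. Each value was above the smallest peak of the same list, but some were only just so. The lowest of the 14 values was matched or undercut by 8.02% and 3.08% of the peaks in the ISC lists and by 0.00975% and 2.33% in the enterocyte lists. The median of the 14 was matched or undercut by 53.2% and 42.8% in the ISC lists and by 27.6% and 41.3% in the enterocyte lists. In enterocyte replicate 1, where the 5th percentile of tags per peak was 33, 3 regions came to 25.6, 28.8 and 30.6 tags. Tags per peak also depend on peak length and on the local background, which were not measured here where no peak was called.

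Along the 19 autosomes, 5111 of the 355623 stretches between neighbouring adult peaks were as long as the 44863 bp at Lrig1. They held a median of 0 regions called in both E14.5 libraries and at most 10, the number at Lrig1, which was the only such stretch with that many. The locus was picked for this run, so its place in that ranking is a description.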

How the data were processed

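MBD pull-down libraries of 8 samples, made with the MethylMiner kit per the labels' protocols, were analysed from peak lists, 1 per library. Library depth was 31438314 to 55442400 tags. The build was mm9, and the submitters' processing notes name Bowtie 1.1.2, SAMtools 1.2 and bcl2fastq 1.8.4. MACS 1.4.2 called each library alone and had no control, per the file headers, which give 1e-05 as its cutoff on p and 10000 bp as its regional background. The authors deposited whole-number tag counts per peak, not normalized, a score that is a multiple of the −log10 p-value, and a fold enrichment, a ratio to the local background of the same library.

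Peaks sharing 1 bp were merged over the genome with pandas 2.3.3. A region is called in a group when every library of the group has a peak in it, and absent when none has. Each background is the same count over all merged regions. Tags were scaled to the total tags in the file headers, and score percentiles were taken within each list. Merging and presence calls were tested on simulated peaks at well-separated sites, where peaks of a site always overlapped. Close regions and peaks joined only through another peak were not covered. No test was made: the locus, its bounds and the lists were chosen with earlier results of these data known, and tags exist only where a peak was called. The regions named in full are those in the gene called in both E14.5 and no adult libraries, or in any adult library, and the flank regions called in all 8 or in both E14.5 and no adult libraries, of which the flanks held none; others named beside them were picked after their values were seen. The split of the gene into 4 parts, the bins of score and the comparison of stretches along autosomes were chosen after the data were seen. Alternatives were merging within 500 bp, equal-length lists, the better-scoring 50% of each list, presence only with 50% coverage, bases near summits, assignment by summit, scaling to tags in peaks, and leaving out each library. Loci of related genes were not analysed here, as no mm9 annotation was used. With 2 libraries per group, ranges stand in place of an error.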

Additional observations from a re-analysis of the deposited data

How the results depend on the processing

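No paired analysis was possible because the results come from no test. With equal-length lists, E14.5 regions of the gene numbered 2 without an ISC peak, 0 without an E12.5 peak and 2 without any adult peak, of 2 called at E14.5, since most peaks drop out by construction. With the better-scoring 50% of each list the counts were 8, 4 and 8, of 9 called at E14.5, and where peaks had to cover 50% of a region they were 7, 6 and 6, of 11. ISC regions without an enterocyte peak numbered 1 with peaks merged within 500 bp, 0 with equal lists and 0 with the better 50%. The flank count without an ISC peak was 1 of 14 called at E14.5 with full lists and 2 of 15 with merging. It was 0 of 2 with equal lists, 2 of 5 with the better 50% and 0 of 5 with 50% coverage. Flank regions without any adult peak were 0 of 14 with full lists, 1 of 15 with merging and 2 of 5 with the better 50%. They were 0 of 2 with equal lists and 0 of 5 with 50% coverage. The longest stretch without an adult peak was 75472 bp with equal lists and 74140 bp with the better 50%.

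Leaving out 1 library gave 15 to 23 regions absent from ISC, 13 to 17 absent from E12.5, 14 to 22 absent from all adult libraries and 2 to 6 flank regions absent from ISC. The high values came without E14.5 replicate 1 or 2, where 1 library decides the call: 23 and 23 for ISC, 16 and 17 for E12.5, and 21 and 22 for the adult libraries. They are out of the 28 and 29 regions of the gene called in the remaining E14.5 library. The flank count of 6 is likewise out of the flank regions called in that library.

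Tags in peaks inside the gene, per 1000000 library tags, had means of 7.18 ± 0.773 (E12.5), 35.3 ± 5.95 (E14.5), 11.3 ± 6.71 (ISC) and 7.28 ± 7.95 (enterocytes), as SD over 2 libraries each, over peaks that covered 4.96%, 13.9%, 4.51% and 3.73% of the gene. Per 1000000 tags in peaks, the means for E12.5, E14.5, ISC and enterocytes were 83.7, 104, 34.4 and 22.7, so on this scale E12.5 was above both adult groups. Per 1000000 library tags with full lists it was not. With equal lists the means in the same order were 6.48, 9.02, 2.67 and 0.831, with E12.5 again above both adult groups, and with the better 50% they were 4.23, 22.3, 5.66 and 1.55. Leaving out 1 library gave 6.54 to 16.0 in ISC and 1.66 to 12.9 in enterocytes, so 1 library decides each of these means. The cause of the changes was not tested. Over the alternatives, 35 values moved and 39 stayed within 1.5 times the full count or 1 SD of the full mean. Leaving out 1 of 2 libraries cannot move a mean by 1 SD, so those tag means stayed by construction. Means per 1000000 tags in peaks are on another scale than the full means, so their place among the moved values says nothing. The tally is therefore no measure of how stable the results are. The enterocyte SD is above its mean, so staying within it says little there. With 2 libraries per group and peaks called without a control, which was not varied, these counts have no error of their own, and a missing peak is not a measured absence of methylation.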
